A study of Mus musculus with 12 samples.

Results

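The genes described here are the BTB and SCAN domain zinc finger genes of mouse embryonic stem (ES) cells, taken as every gene whose listed symbol begins with Zbtb, Zkscan or Zscan followed by a digit. The rule found 46 genes, 31 Zbtb, 8 Zkscan and 7 Zscan, among 6074 named genes with a peak of N6-methyladenosine (m6A) in any of the 4 deposited tables. The cells were J1, an established mouse ES cell line, kept on irradiated fibroblast feeders with LIF. All groups carried a lentiviral shRNA and had been selected with puromycin. The shRNA was a scramble sequence in the control group, and was directed against Mettl14 or against Mettl3 in the other groups. Fragmented poly(A) RNA was pulled down with an antibody against m6A (IP), which gave 6 IP libraries, 2 in each group. They fall into 2 sets that share no library, each with 1 scramble, 1 Mettl14 knockdown and 1 Mettl3 knockdown library, and both knockdowns of a set are compared with the same scramble library. The labels do not say whether libraries of a group came from separate cultures, so a difference between sets may be technical.

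In the complex that writes m6A, Mettl3 carries the catalytic activity and Mettl14 helps it to bind RNA. The mark is placed in mRNA mostly at a short motif around the methylated A, is frequent near stop codons and in long internal exons, and is known for hastening mRNA decay in ES cells. BTB zinc finger proteins carry an amino-terminal BTB domain, through which they pair with one another and recruit corepressors, and carboxy-terminal C2H2 zinc fingers that read DNA. SCAN zinc finger proteins pair through a SCAN domain instead, and Zkscan proteins carry a KRAB domain as well. Both families are sequence-specific transcription factors, and many of their genes keep the zinc fingers in 1 long last exon. Zscan10, a cofactor of the pluripotency factors, and Zscan4c, a telomere-lengthening gene of the rare ES cells that resemble 2-cell embryos, are the members best known from ES cells.

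The sequences show which letters the members' peaks hold at the m6A consensus GGACT. This motif was searched on the transcript strand of the GENCODE M21 transcript with the longest coding sequence of each gene (build mm10), and is set in capitals. The first group was picked after the peak sequences had been seen, because 4 Zbtb genes carry the same longer motif, CTGGACTT, which holds GGACT, at nearly the same place in the amino-terminal part of the coding sequence.
Zbtb42: cagccgcctgctGGACTtcatgtacgagg
Zbtb48: tggcctcctgctGGACTttttctacactg
Zbtb49: agggcagatcctGGACTtcatgtacacat
Zbtb8a: cacagtcatcctGGACTtcgtatactccg
The windows lie at chr12:112679620-112679648 (+ strand) in Zbtb42, chr4:152026810-152026838 (- strand) in Zbtb48, chr5:38214283-38214311 (- strand) in Zbtb49 and chr4:129360444-129360472 (- strand) in Zbtb8a. CTGGACTT began in frame at codon 80 in Zbtb42, codon 77 in Zbtb48, codon 79 in Zbtb49 and codon 80 in Zbtb8a, counted from 1 at the start codon. A listed peak covered it in all 6 libraries in Zbtb48, in 4 in Zbtb8a, in 3 in Zbtb42 and in 1 in Zbtb49. The Zbtb42 and Zbtb48 windows matched in 20 of 29 positions, and Zbtb42 matched Zbtb49 and Zbtb8a in 18 each. The median over all 936 pairs of such windows from different members was 11. In every pair the 5 letters of GGACT match by construction. Among the 4 genes shown the rest of CTGGACTT does too, since they were picked for it. Of 31 Zbtb coding sequences 7 held CTGGACTT (22.6%), 6 of them in frame. The other 3 were Zbtb7b and Zbtb38, in frame, and Zbtb9, out of frame. None of the 15 Zkscan and Zscan coding sequences held it, and 463 of 5744 of all other named genes did (8.06%). Per kb of coding sequence, this was 0.136 in Zbtb genes and 0.0404 in all other named genes. Both Zbtb values include the 4 genes in which the motif was first noticed. They are raised by that choice and cannot test for an excess in Zbtb genes. A match is a run of letters and not a measured methylation site.

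The SCAN genes below were picked because of where their GGACT fell. It lay outside the fingers in Zscan20 and Zscan29, whose windows are alike, and inside finger-coding sequence in the other 4. Of these, Zkscan17, Zscan2 and Zscan22 have similar windows and Zkscan6 is the Zkscan gene with a peak in all 6 libraries. In the SCAN windows not shown, of Zkscan1, Zkscan5, Zkscan14, Zscan4c and Zscan20 site 3, GGACT lay outside the fingers too. Each site gave 1 window. Where a site held more than 1 GGACT, such as Zkscan14 with 3, the others were not placed against the fingers.
Zscan20: ggggcttcttgcGGACTctggagcagtgt
Zscan29: atggtttcctccGGACTctggaacagtgt
Zkscan17: cttccagtgtggGGACTgtgagaagagct
Zscan2: ctacaaatgcagGGACTgcgggaagagct
Zscan22: ttatcaatgtaaGGACTgcccgaaggcct
Zkscan6: tttttcaccaaaGGACTcacacgggagag
They lie at chr4:128589771-128589799 (- strand) in Zscan20, chr2:121166366-121166394 (- strand) in Zscan29, chr11:59487239-59487267 (- strand) in Zkscan17, chr7:80875363-80875391 (+ strand) in Zscan2, chr7:12907141-12907169 (+ strand) in Zscan22 and chr11:65828447-65828475 (+ strand) in Zkscan6. Zscan20 and Zscan29 matched in 23 of 29 positions, the most of any pair. Zkscan17 and Zscan2 matched in 22, and Zscan2 and Zscan22 in 20. These matches include GGACT, which every window holds by construction. A last window is shown because its peak had the largest mean fall over both sets of any ranked member site with either knockdown. It lies in the 3' UTR of Zbtb42, at chr12:112681254-112681282 on the + strand, 113 nt from the median summit listed for its peaks.
Zbtb42 3' UTR: gtccctggagtgGGACTttggacaacgaa

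GGACT was found in 41 of 59 member peaks on exons in the set 1 scramble library (69.5%) and in 39 of 55 in set 2 (70.9%). Among peaks of all other named genes the shares were 63.7% and 66.9%. Since member peaks were wider, the density per kb is given too, and it went the other way, at 1.49 and 1.37 per kb of member peak against 1.69 and 1.62 in all other named genes. Over whole transcripts the density was 1.02 per kb in the members and 1.15 in all other named genes. Both classes therefore held the motif more densely in peaks than in whole transcripts.

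The annotation holds 67 protein-coding genes of the symbol pattern, and 54 of them had a listed peak (80.6%), against 26.4% of all 21951 protein-coding genes. Of the 54, 46 are the members. The other 8 were listed under another symbol and stay out of the counts, for example Zscan26 as Zfp187, Zbtb21 as Zfp295, Zbtb14 as Zfp161 and Zbtb18 as Zfp238. No peak was listed for 13, among them Zbtb16, Zbtb17, Zbtb20, Zbtb33 and Zbtb44. A gene without a peak may be unmethylated or not expressed, and the tables hold no expression values. For the same reason neither knockdown could be checked at its own mRNA, since neither Mettl3 nor Mettl14 had a listed peak. In bulk cells, fewer cells with a methylated mRNA and less methylation per cell cannot be told apart. In lists of marker genes, peaks were listed for 3 of 10 ES cell genes (Sox2, Esrrb and Klf4), for 4 of 14 feeder fibroblast genes (Col5a1, Thy1, Twist1 and Fbn1) and for 1 of 7 two-cell-like genes, Zscan4c itself. ES cell genes with a peak numbered 2 to 3 per library. Fibroblast genes with a peak numbered 2 and 1 in the scramble libraries, 3 and 2 with Mettl14 knockdown and 0 in both libraries with Mettl3 knockdown. Col1a1, Col1a2 and Col3a1 had no peak in any library. The part of feeder RNA in the results was not tested.

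Scramble cells carried m6A peaks in most members. In the set 1 scramble library 61 peaks fell in 42 members, 1.48 per gene, and in set 2 58 peaks fell in 36 members, 1.64 per gene. All other named genes had 1.37 and 1.27 peaks per gene with a peak, and Zfp genes 1.495 and 1.39. Members with more than 1 peak made up 35.7% and 44.4%, against 26.9% and 20.95% of all other named genes and 37.3% and 29.1% of Zfp genes. These differences were not tested. Zbtb10, Zbtb5 and Zscan20 had the most, with 7 scramble peaks each over both sets, followed by Zbtb37, Zbtb7a and Zbtb7b with 5 each. Zbtb10, which binds telomeric variant repeats, had 3 peaks in set 1 and 4 in set 2. Zbtb5, a repressor of a cell cycle inhibitor gene, had 4 and 3. A scramble peak was present in both sets in 33 members, in set 1 only in 9, in set 2 only in 3 and in neither set in 1, Zkscan4.

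Member peaks were wider than those of all other named genes in both scramble libraries. Their median width was 762 nt in set 1 and 833 nt in set 2, against 591 and 708 nt. Peaks above 1000 nt made up 27.9% and 39.7% of member peaks, against 18.5% and 26.4%. The widest member peak in set 1 was in Zbtb22, at 2344 nt. Zfp genes, the other large zinc finger group, had medians of 657 and 874 nt. In the knockdown libraries the median member peak was narrower, at 597.5 nt with Mettl14 knockdown and 639 nt with Mettl3 knockdown in set 1, and at 769 and 696 nt in set 2. Peaks of all other named genes narrowed likewise, to 524, 552, 624.5 and 599 nt. The exon that held the peak centre had a median length of 2063 nt in the set 1 scramble library for members and 1713 nt for all other named genes, and 1786 and 1719 nt in set 2.

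**Figure D1:**
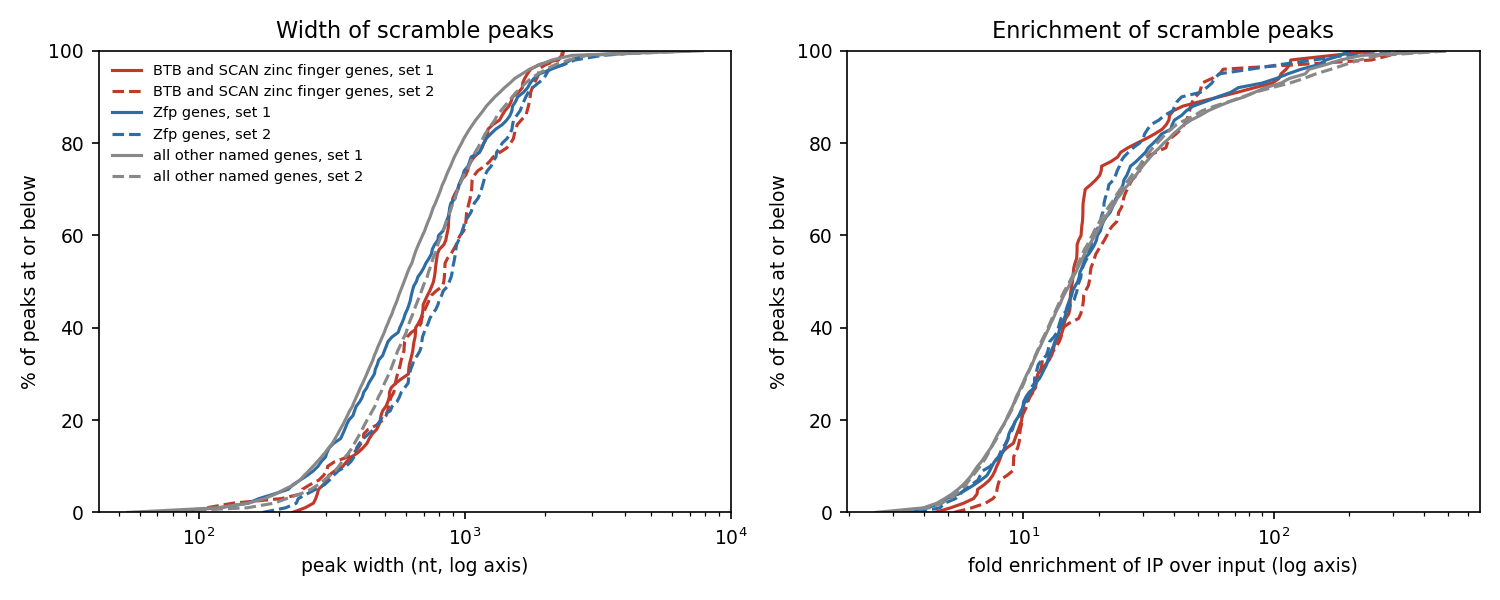
Cumulative distributions of peak width in nt (left) and of fold enrichment of IP over input (right), both on log axes, for scramble peaks of the members (red), of Zfp genes (blue) and of all other named genes (grey), set 1 solid and set 2 dashed. The member curves for width lie to the right of the grey curves of the same set over most of the range (medians 762 and 833 nt against 591 and 708 nt), while the enrichment curves lie closer together (medians 15.7 and 18.3 against 15.5 and 15.3).

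Enrichment of member peaks was near that of other peaks in set 1 and above it in set 2. The fold enrichment, the authors' own value per peak from the peak caller, compares IP with its own input. Its median over member peaks was 15.7 in the set 1 scramble library and 18.3 in set 2, and 15.5 and 15.3 over all other named genes. The middle 50% of member peaks ran from 10.3 to 20.5 in set 1 and from 10.6 to 29.5 in set 2. The highest values stood on few tags. Zbtb46, which marks classical dendritic cells, had the highest value in set 2, 312 over 94 nt with 14 tags, and Zscan29 had 255 over a peak of 18 tags in set 1. The lowest was that of Zscan10, 4.42 in set 1.

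Peaks of these genes sat in coding sequence. In the set 1 scramble library 43 of 61 member peaks had their centre there (70.5%), 11 lay within 200 nt of the stop codon (18.03%), 5 in the 3' UTR (8.20%), none in the 5' UTR and 2 outside exons. In set 2 the shares were 74.1% in coding sequence and 10.3% at the stop codon. All other named genes had 44.7% and 50.1% in coding sequence and 26.0% and 23.2% at the stop codon. The coding share was 76.9% to 83.0% in the 4 knockdown libraries. Coding sequence made up 41.4% of member transcript length and 52.1% of the transcripts of all other named genes. Zfp genes had 67.2% and 72.6% of their scramble peaks in coding sequence, close to the members.

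**Figure D2:**
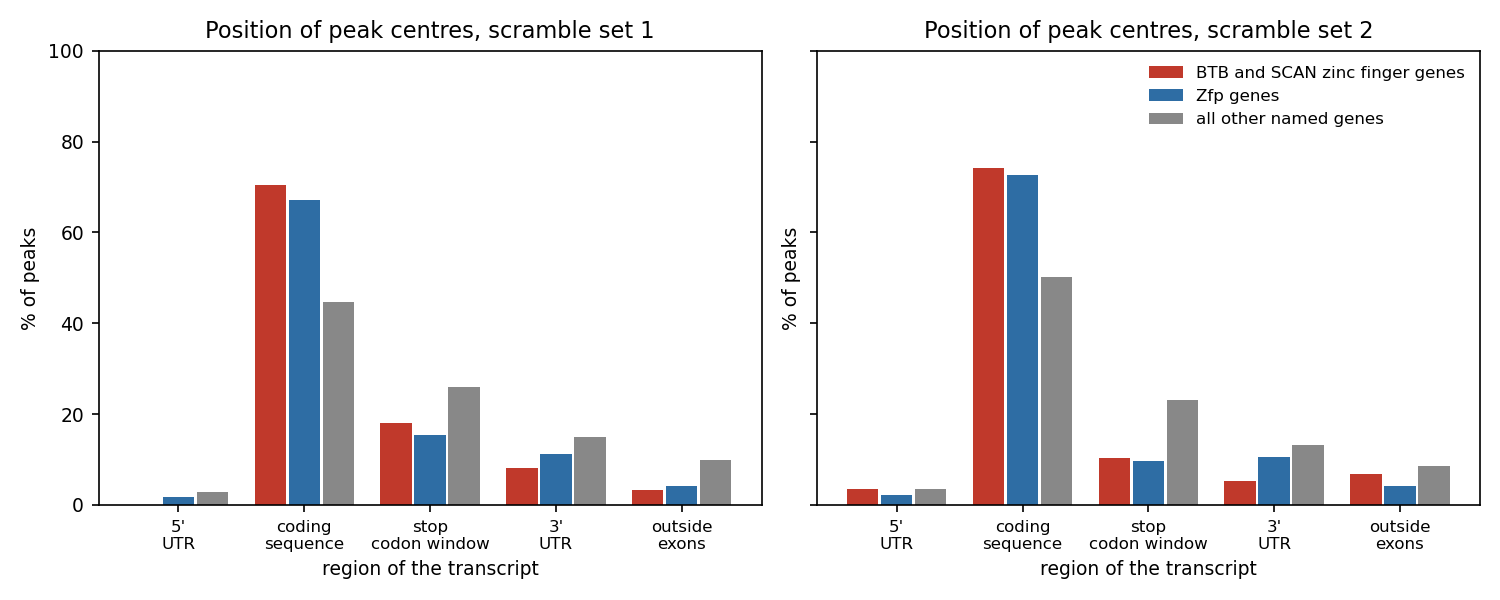
Share of scramble peaks (%) by the transcript region that holds the peak centre, in set 1 (left) and set 2 (right), for the members (red), Zfp genes (blue) and all other named genes (grey), with peaks on noncoding transcripts (at most 1.86% of a class) not drawn. Coding sequence holds 70.5% and 74.1% of member peaks against 44.7% and 50.1% for all other named genes, and the stop codon window 18.03% and 10.3% against 26.0% and 23.2%.

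Zinc finger-coding sequence was part of many of these peaks. Counting a C2H2 pattern in the translated transcripts, 42 of 46 members held at least 2 fingers, with a median of 4 and at most 14. Of the member peaks on exons, 36 of 59 (61.0%) touched finger-coding sequence in set 1 and 31 of 55 (56.4%) in set 2. Finger-coding letters filled 13.4% and 11.5% of the member peak length, beside 7.33% of the members' whole transcripts and 17.7% of their coding sequence. Zfp genes had longer finger arrays, with a median of 10. Theirs filled 26.1% of peak length in both sets, beside 15.8% of whole transcripts and 32.7% of coding sequence.

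Chaining overlapping peaks of the 6 libraries gave 78 member sites, numbered along each transcript. Of these, 52 were centred in coding sequence, 12 at the stop codon, 5 in the 3' UTR, 3 in the 5' UTR and 6 outside exons. In all 6 libraries 31 sites were found, from 26 members (20 Zbtb, 1 Zkscan and 5 Zscan). Finger-coding sequence lay in 23 of the 31 and GGACT in 27. A further 28 sites were found in 2 to 5 libraries and 19 in 1. Measured per peak, 31 of 61 set 1 scramble peaks (50.8%, 95% Wilson interval 38.6 to 62.9, counting error only) overlapped a peak in every other library, against 31.7% over all named genes. In set 2 it was 31 of 58 (53.4%, interval 40.8 to 65.7), against 45.8%. A peak of the other scramble library overlapped 77.0% of the set 1 and 81.0% of the set 2 member peaks, where the shares over all named genes were 62.0% and 87.8%. No knockdown library held a peak at 8 set 1 member peaks (13.1%, background 24.8%) and at 10 set 2 member peaks (17.2%, background 16.1%). The set 1 shares lay on the side of better reproducibility, and in set 2 the member intervals held the background. Among Zfp genes 39.0% and 53.4% of scramble peaks (set 1 and set 2) were found in all 6 libraries. A peak of the other scramble library overlapped 67.5% and 91.3% of them, and no knockdown library held a peak at 18.4% and 12.8%. In set 1 Zfp genes thus lay on the same side of the background as the members. Peaks found everywhere were the wide ones, with a median of 868 nt in set 1 and 1009 nt in set 2, and those found in no knockdown library had medians of 581 and 386 nt. The part of width in these shares was not tested.

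**Figure D3:**
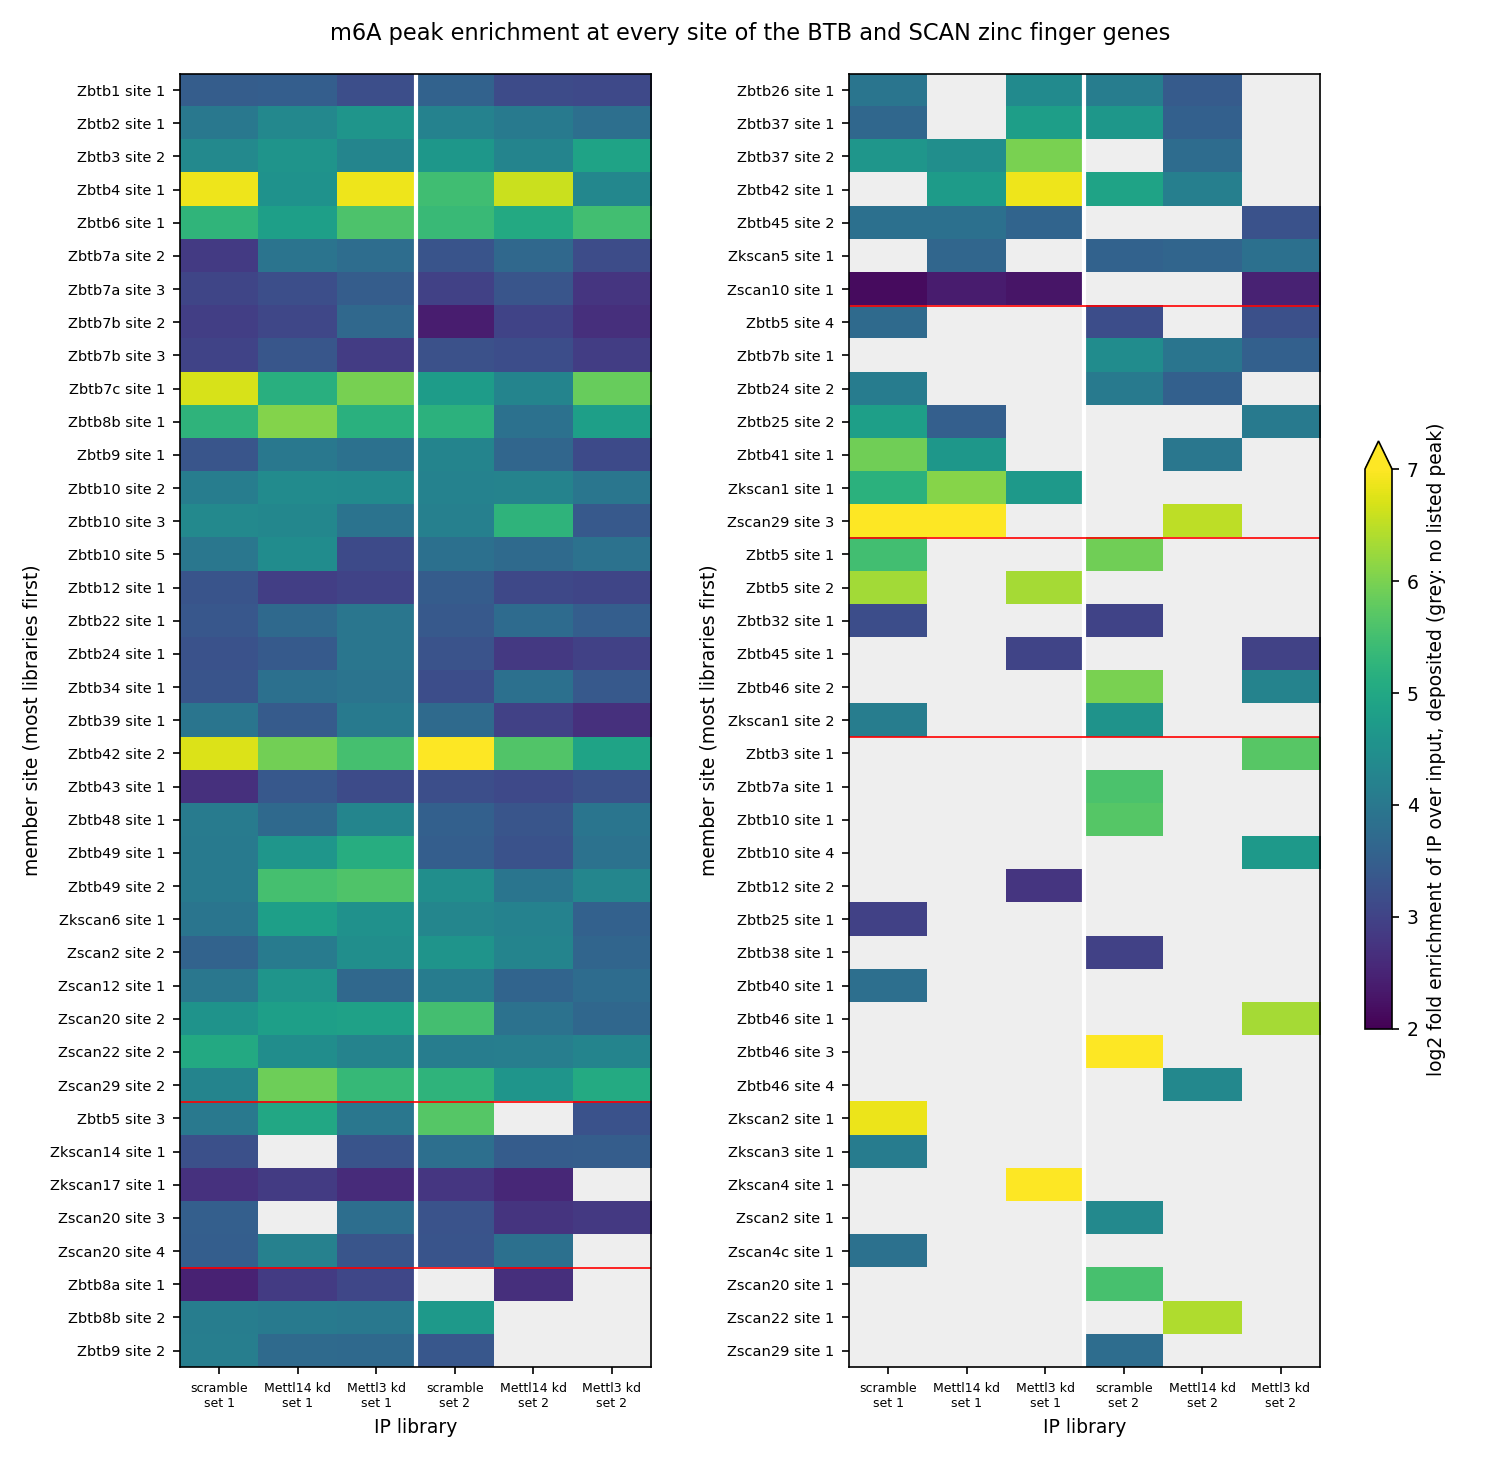
Fold enrichment of IP over input on a log2 scale (colour) at all 78 member sites (vertical) in the 6 IP libraries (horizontal), grey where no peak is listed, sorted by the number of libraries, with red lines between the numbers. The 31 sites found in all 6 libraries fill the upper left block and the 19 sites found in 1 library the lower right, and Zbtb42 site 2 is brighter in both scramble libraries (107 and 276) than in any knockdown library (30 to 61.2).

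Fewer of the members' scramble peaks than of all named genes' peaks lacked a counterpart after knockdown in set 1, and in set 2 this could not be told from counting error. With Mettl14 knockdown, 16 of 61 set 1 scramble peaks had no overlapping knockdown peak (26.2%, 95% Wilson interval 16.8 to 38.4), against 39.0% over all named genes. In set 2 it was 17 of 58 (29.3%, interval 19.2 to 42.01), against 41.2%. With Mettl3 knockdown 15 of 61 were lost in set 1 (24.6%, interval 15.5 to 36.7) and 19 of 58 in set 2 (32.8%, interval 22.1 to 45.6), where the shares over all named genes were 41.0% and 36.6%. The set 1 intervals ended below the share over all named genes and the set 2 intervals included it. Zfp genes lost 27.5% and 26.9% after Mettl14 and 34.4% and 35.2% after Mettl3 knockdown. Each table compares 1 library with 1 library, so no replicate error stands behind these shares. Lost member peaks were narrower than shared ones, with medians of 581 against 776 nt for Mettl14 knockdown in set 1 and 523 against 1002 nt for Mettl3 knockdown in set 2.

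New peaks, listed in the knockdown library alone, were few. They numbered 4 of 52 with Mettl14 knockdown in set 1 (7.69%, background over all named genes 15.2%) and 6 of 47 in set 2 (12.8%, background 26.5%). With Mettl3 knockdown there were 6 of 55 (10.9%, background 10.8%) and 7 of 47 (14.9%, background 23.7%). The 95% Wilson interval for Mettl14 knockdown in set 2, 5.98 to 25.2%, ended just below the background, and the other 3 intervals held it. No member had a new peak in all 4 tables.

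**Figure D4:**
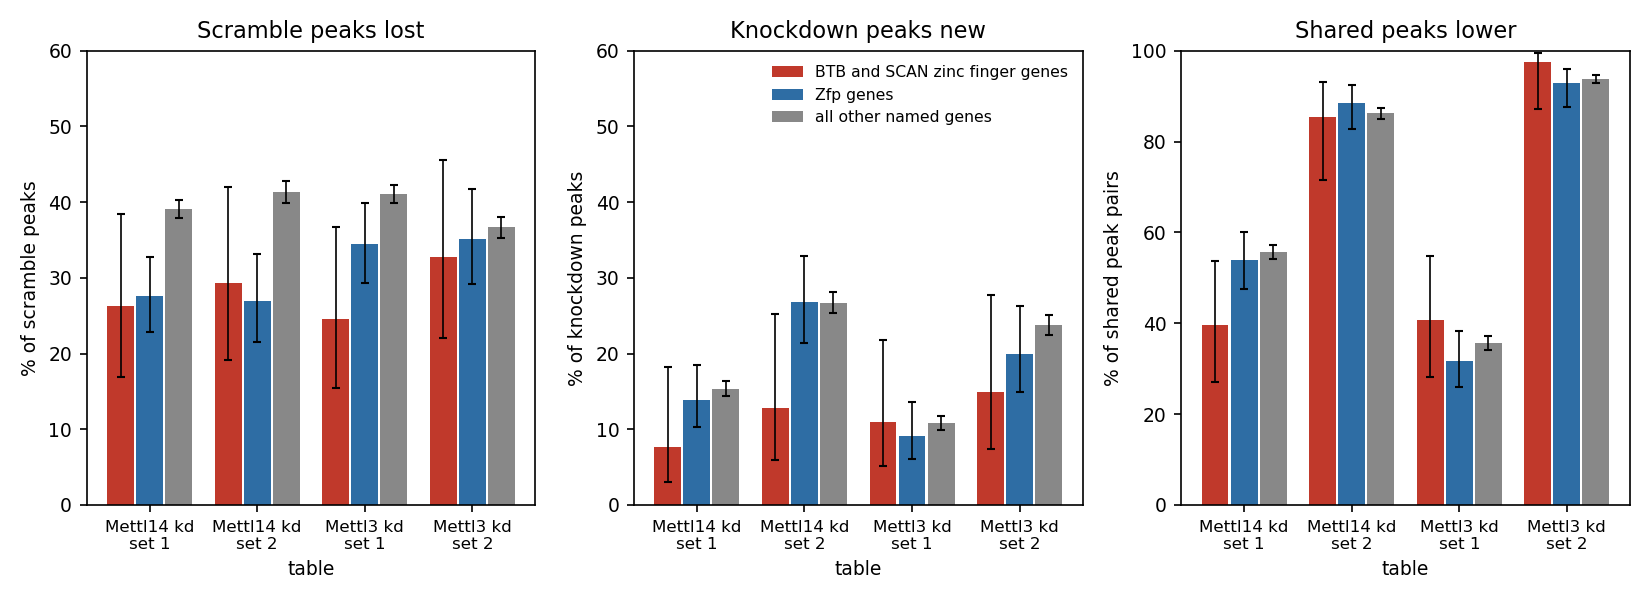
Share of peaks (%) with a given fate in the 4 tables for the members (red), Zfp genes (blue) and all other named genes (grey), with 95% Wilson intervals as error bars (counting error only). Lost member peaks run from 24.6% to 32.8%, below the grey bars in all 4 tables, while lower shared peaks go from 39.6% and 40.8% in set 1 to 85.4% and 97.5% in set 2, and rise in the other classes too.

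Of peaks present in both libraries of a table, a larger share was lower in set 2 than in set 1 by the authors' deposited values. This held in members and in all named genes, although with Mettl14 knockdown in set 1 their shares differed. The log2 change used here is that of the authors' deposited tables, which multiply knockdown enrichments by 1 constant per table, 0.906 and 0.777 for Mettl14 and 1.00 and 0.609 for Mettl3 in set 1 and set 2. It was negative in 19 of 48 member pairs with Mettl14 knockdown in set 1 (39.6%, background over all named genes 55.5%) and in 35 of 41 in set 2 (85.4%, background 86.2%). With Mettl3 knockdown it was negative in 20 of 49 (40.8%, background 35.7%) and in 39 of 40 (97.5%, background 93.9%). By the authors' deposited tables, median log2 changes of the members were 0.11 and -0.71 (Mettl14, set 1 and set 2) and 0.20 and -1.04 (Mettl3), beside -0.07, -0.60, 0.20 and -0.91 over all named genes. Without the constants the set 2 shares were 73.2% and 65.0%, and with the median over all shared peaks of the table set to 0 they were 56.1% and 57.5%. All named genes had 66.7% and 63.3% without the constants and 50.4% and 49.9% with the median set to 0. The member intervals of set 2 held the background with the constants. For Mettl14 knockdown in set 1 the member share was below the background under each, at 35.4% against 45.8% without the constant and 37.5% against 50.8% with the median set to 0.

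Few members kept their direction across sets. A gene was called lower if all its peaks were lost or fell, and higher if new peaks and positive changes were all it had. Otherwise it was of both kinds, which a gene with more peaks can more easily be. With Mettl14 knockdown 23.3% and 21.1% of members were of both kinds (set 1 and set 2), against 14.9% and 9.75% of all named genes. With Mettl3 knockdown it was 27.9% and 7.69%, against 15.7% and 8.39%. The part of peak number in the calls was not tested. With Mettl14 knockdown 8 of 36 members listed in both tables were lower in both sets (22.2%, background 41.8%), namely Zbtb6, Zbtb7c, Zbtb12, Zbtb26, Zbtb32, Zbtb39, Zbtb48 and Zkscan14. Zbtb8a and Zbtb34 were higher in both sets (5.56%, background 7.55%). With Mettl3 knockdown 8 of 36 were lower in both sets (22.2%, background 33.5%), namely Zbtb1, Zbtb4, Zbtb8b, Zbtb32, Zkscan1, Zkscan17, Zscan12 and Zscan22, and Zscan10 alone was higher (2.78%, background 5.81%). Without the constants, members higher in both sets numbered 4 with Mettl14 knockdown and 5 with Mettl3 knockdown, and with the median set to 0 they numbered 7 and 4. Zscan10 was not among those 4. Zbtb48 was no longer lower in both sets with Mettl14 knockdown with the median set to 0, and Zscan22 no longer with Mettl3 knockdown under either alternative. Zbtb32 was the only member whose call was lower in all 4 tables, and no member was higher in all 4. Under both knockdowns Zbtb2, Zbtb22, Zbtb43, Zbtb49, Zkscan6 and Zscan2 turned from higher (set 1) to lower (set 2). In 5 of these 6 the turn depended on the constants or the centring. Without the constants Zbtb22 (both knockdowns) and Zbtb43 (Mettl3) were higher in both. The same was seen of Zbtb2, Zbtb22, Zbtb43 and Zkscan6 (Mettl14) and of Zbtb22, Zbtb43 and Zbtb49 (Mettl3) when each table's median was put at 0. The other 26 members with a scramble peak in both sets followed neither pattern. How many of all named genes kept 1 call in all 4 tables, or turned between sets, was not counted.

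Over the 6 libraries, member peaks numbered 61 and 58 with scramble shRNA, 52 and 47 for Mettl14 and 55 and 47 for Mettl3. Both scramble libraries lay above all 4 knockdown libraries, with means of 59.5 and 50.25. An exact permutation test over libraries (two-sided, 15 assignments) gave p = 0.133, where the smallest p the design allows is 0.0667. Per 100 peaks of named genes the order was not kept, at 0.910 and 1.25 with scramble shRNA and 1.04, 1.24, 1.203 and 1.18 in the knockdown libraries (exact permutation p = 0.667). Exchanging libraries within sets only gave exact p = 0.111 for the counts, the smallest that 9 assignments allow, and 0.556 per 100 peaks.

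In the sentences that follow, enrichments at a site are the deposited fold enrichments, given for scramble, Mettl14 knockdown and Mettl3 knockdown in that order. They are unscaled, and where a library had several peaks at a site, as at 9 of the 78, the widest gives the value. Zbtb42, a BTB gene linked to muscle, held the ranked site that fell most on average. Its 3' UTR site (site 2, chr12:112680783-112681363, exon 2 of 2) read 107, 61.2 and 45.8 in set 1 and 276, 49.9 and 30 in set 2. All 4 knockdown values lay below both scramble values. By the authors' deposited tables the log2 changes were -0.95 and -2.83 for Mettl14 and -1.22 and -3.92 for Mettl3, the largest mean falls among 33 and 34 ranked sites. Its knockdown peaks held 52 and 29 tags (Mettl14) and 54 and 19 tags (Mettl3), the last with a deposited FDR of 6.09%. For its scramble peaks no tags are listed, and their values of 107 and 276 were themselves far apart. The coding site of the same gene, which holds CTGGACTT, read 26.9 and 117 in the set 1 knockdown libraries with no scramble peak, and 29.7 and 17.8 in set 2 with no Mettl3 knockdown peak. Its libraries without a peak differed between the sets.

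Zbtb32, a repressor of cytokine genes in lymphocytes, had a single site at its stop codon (chr7:30589680-30590288, - strand, exon 6 of 6). The scramble peaks read 9.12 over 88 tags in set 1 and 8.02 over 85 tags in set 2. None of the 4 knockdown libraries listed a peak there. The deposited FDR of these scramble peaks was 1.22% and 8.80%, where 9.99% is the highest listed. Zbtb5 and Zkscan1 each had 1 other site of this kind, in both scramble libraries and in no knockdown library. The Zbtb5 site 1 lay outside the exons of the transcript used and read 44.6 and 60.5 over 23 and 22 tags. The Zkscan1 site 2, in the 3' UTR of a gene also known for its circular RNA, read 17.5 and 23.8 over 41 and 42 tags. These 3 are the member sites found in both scramble libraries and in no knockdown library. The share of such sites over all named genes was not counted.

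Several BTB factors of blood and immune cells had peaks in all 6 libraries. Zbtb7a, a repressor of fetal globin genes, read 7.23, 15.3 and 13.8 in set 1 and 9.85, 13.0 and 8.97 in set 2 at its coding site (site 2). Its stop codon site (site 3) read 8.24, 9.19 and 11.1, then 7.84, 9.95 and 6.81. The coding site had the largest mean rise with Mettl14 knockdown, which set 1 carried (log2 changes of 0.94 and 0.03 by the authors' deposited tables). Zbtb7b, which directs T cells to the CD4 helper lineage, read 7.61, 8.32 and 13.0, then 5.28, 8.05 and 6.37 at coding site 2. Unscaled, every knockdown value there lay above its scramble value. The authors' deposited tables, with their constants, give 0.77 and -0.45 on the log2 scale for Mettl3. At coding site 3 of Zbtb7b the values were 8.08, 10.1 and 7.37, then 9.49, 9.10 and 7.46. Zbtb7c, their close relative, read 104, 35.4 and 62.6, then 27.1, 19.2 and 57.1. Its scramble values lay farther apart than scramble and knockdown did in set 2, where Mettl3 knockdown was above scramble. By the authors' deposited tables, Mettl14 knockdown gave log2 changes of -1.69 and -0.86, the second largest mean fall. Zbtb1, needed for lymphocyte development, read 11.16, 11.21 and 9.25, then 11.82, 8.89 and 8.57. Mettl14 knockdown in set 1 was close to scramble and the other 3 values were lower. Its call with Mettl14 knockdown was of both kinds because a second, narrower set 1 peak at the site was higher. Zbtb24, mutated in an immunodeficiency with centromere instability, read 9.6, 10.7 and 15.7, then 9.67, 7.09 and 7.80 at coding site 1. The second coding site of Zbtb24 was lost in all tables except that of Mettl14 knockdown in set 2, where 16.8 went to 11.5. Zbtb46 had no site shared by the sets: 4 sites were seen, each in set 2 alone, and 3 of them in 1 library.

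Members that bind telomeric repeats or methylated DNA gave mixed values. Zbtb48, a protein of long telomeres, carried its site in exon 2 of 11, over the CTGGACTT shown above, and read 17, 13.0 and 19.4, then 11.6, 10 and 15.4. Mettl14 knockdown was below scramble and Mettl3 knockdown above it in both sets, but with the constant the Mettl3 value of set 2 is a log2 change of -0.30 by the authors' deposited tables. Zbtb10 read 17.3, 21.4 and 21.1, then 18.5, 18.8 and 15.7 at coding site 2. At coding site 3 it read 20.4, 19.97 and 15.1, then 18.2, 38.1 and 10.51, and at the stop codon site 5 15.8, 21.6 and 8.68, then 14.4, 13.3 and 14.8. Zbtb4, a reader of methylated CpG, read 118, 23.4 and 117, then 44.3, 97.3 and 20. These are the widest peaks. A second Mettl14 knockdown peak in set 1 read 30.3 and a second Mettl3 knockdown peak 28.6, so that only 1 of the 2 Mettl3 knockdown peaks of set 1 was close to scramble. In set 2 Mettl14 knockdown was above scramble and Mettl3 knockdown below it. Its relative Zbtb38 had 1 peak, in the set 2 scramble library, at 7.82 over 237 tags.

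Among other BTB genes, Zbtb22 had the most tags recorded for any member, up to 479, in a wide peak that is also assigned to its neighbour Tapbp. It read 10.3, 13.1 and 15.5, then 10.48, 13.4 and 11.3. Its unscaled values lay above scramble in all 4 knockdown libraries. Zbtb34 did likewise, with 9.88, 14.4 and 15.1, then 9.13, 14.4 and 10.51. By the authors' deposited tables its log2 changes with Mettl14 knockdown were 0.41 and 0.29, the third largest mean rise. Zbtb43 read 6.5, 10.4 and 8.88, then 9.14, 8.58 and 9.45. Zbtb39 read 15.3, 10.8 and 16.4, then 13.2, 7.84 and 6.48, with 3 of 4 knockdown values below scramble. Zbtb12 was the other gene beside Zbtb42 with a site below scramble in all 4 knockdown libraries both with and without the constants. It read 9.84, 7.61 and 8.07, then 11.01, 8.47 and 8.27 at a coding site in exon 2 of 2. The Zbtb12 falls were small but the 4 knockdown values, 7.61 to 8.47, did not overlap the scramble values. Among the 31 sites in all 6 libraries, 4 had a negative log2 change in all 4 of the authors' deposited tables, in Zbtb1, Zbtb12, Zbtb42 and Zscan22, and none a positive one in all 4. Without the constants 2 were lower in all 4 tables and 3 were higher in all 4, the latter in Zbtb7b, Zbtb22 and Zbtb34. Sites of this kind were not counted over all named genes.

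Zbtb2, a regulator of ES cell differentiation, read 15.9, 20.1 and 24.3, then 18.5, 16.7 and 14.2. Zbtb49 read 16.4, 24.7 and 34.8, then 11.2, 9.63 and 14.8 at coding site 1, and 16.4, 45.8 and 49.1, then 22.1, 15.3 and 19.6 at coding site 2. The Zbtb49 sites had the largest mean rises with Mettl3 knockdown, by the authors' deposited tables, at log2 changes of 1.09 and -0.31 at site 1 and 1.59 and -0.89 at site 2. Both turned from a rise in set 1 to a fall in set 2. Zbtb8b read 38.2, 67.5 and 36.0, then 37.1, 14.6 and 28.2 at its coding site. Zbtb9, whose peak is also assigned to Ggnbp1, read 10.0, 15.9 and 14.5, then 19.0, 12.5 and 8.67. Zbtb3 read 20.5, 24.1 and 19.5, then 25.2, 19.01 and 30. Zbtb6 read 38.5, 28.4 and 48.8, then 41.8, 32.8 and 44.8. In Zbtb6 the Mettl14 knockdown values lay below scramble and the Mettl3 knockdown values above it in both sets, as in Zbtb48. Here too the constant turned the Mettl3 value of set 2, to a log2 change of -0.62 in the authors' deposited tables.

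Zbtb5 had 4 sites and none in all 6 libraries. Coding site 3 read 16.3, 31.8 and 15.8 in set 1. In set 2 it read 51.1 with scramble shRNA, no peak with Mettl14 knockdown and 9.54 with Mettl3 knockdown. Its Mettl3 log2 changes by the authors' deposited tables, taken at the widest peaks, were -0.05 and -3.14, the second largest mean fall, which set 2 alone carried. A second, narrower Mettl3 knockdown peak at the site in set 1 read 38.1, a deposited signed fold of 2.34 over scramble. Coding site 4 read 13.3 and 9.04 in the scramble libraries and 9.27 with Mettl3 knockdown in set 2. Zbtb37 read 15.5 and 27.9 at an overlapping pair of peaks with scramble shRNA and Mettl3 knockdown in set 1, where a wider scramble peak beside it, at 12.8, was lost, then 25.03 and 11.5 with scramble shRNA and Mettl14 knockdown in set 2, at coding site 1. Its stop codon site read 24.7, 22.03 and 63.5 in set 1 and 13.6 with Mettl14 knockdown alone in set 2. Zbtb26, whose site is also assigned to its neighbour Zbtb6, read 15.4 and 21.1 with scramble shRNA and Mettl3 knockdown in set 1, then 17.4 and 10.8 with scramble shRNA and Mettl14 knockdown in set 2. For each of these the libraries that lacked a peak differed between sets.

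Among the SCAN genes without a KRAB domain in their name, Zscan20 had 4 sites. At coding site 2, which holds the window it shares with Zscan29, it read 23.6, 28.4 and 29.0, then 45.6, 14.7 and 12.7. By the authors' deposited tables the log2 changes there were 0.13 and -2.00 for Mettl14 and 0.30 and -2.56 for Mettl3, the third largest mean falls. The scramble value in set 2 was higher than in set 1 and the knockdown values were lower, so the site was lower in set 2 and higher in set 1. A second Mettl14 knockdown peak of set 1, nearly as wide, read 19.9 and lay below scramble. Coding site 4 of Zscan20, over its finger array, read 11.2, 18.3 and 9.93, then 9.90 and 14.4 with no Mettl3 knockdown peak in set 2. Its Mettl14 log2 changes by the authors' deposited tables, 0.56 and 0.18, were the second largest mean rise. Zscan29 read 19.2, 59.7 and 40.8, then 38.0, 24.2 and 33.3 at coding site 2, higher with knockdown in set 1 and lower in set 2. Zscan2 read 12.1, 16.9 and 22.3, then 24.0, 19.1 and 12.3 at its finger site, with the same turn between sets. Zscan22 read 32.7, 22.02 and 18.7, then 17.4, 17.5 and 19.1 at its finger site. Its set 2 knockdown values lay above scramble until the constants were applied. Zscan12 read 15.7, 24.5 and 13.0, then 17.1, 12.2 and 13.6 at the stop codon.

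**Figure D5:**
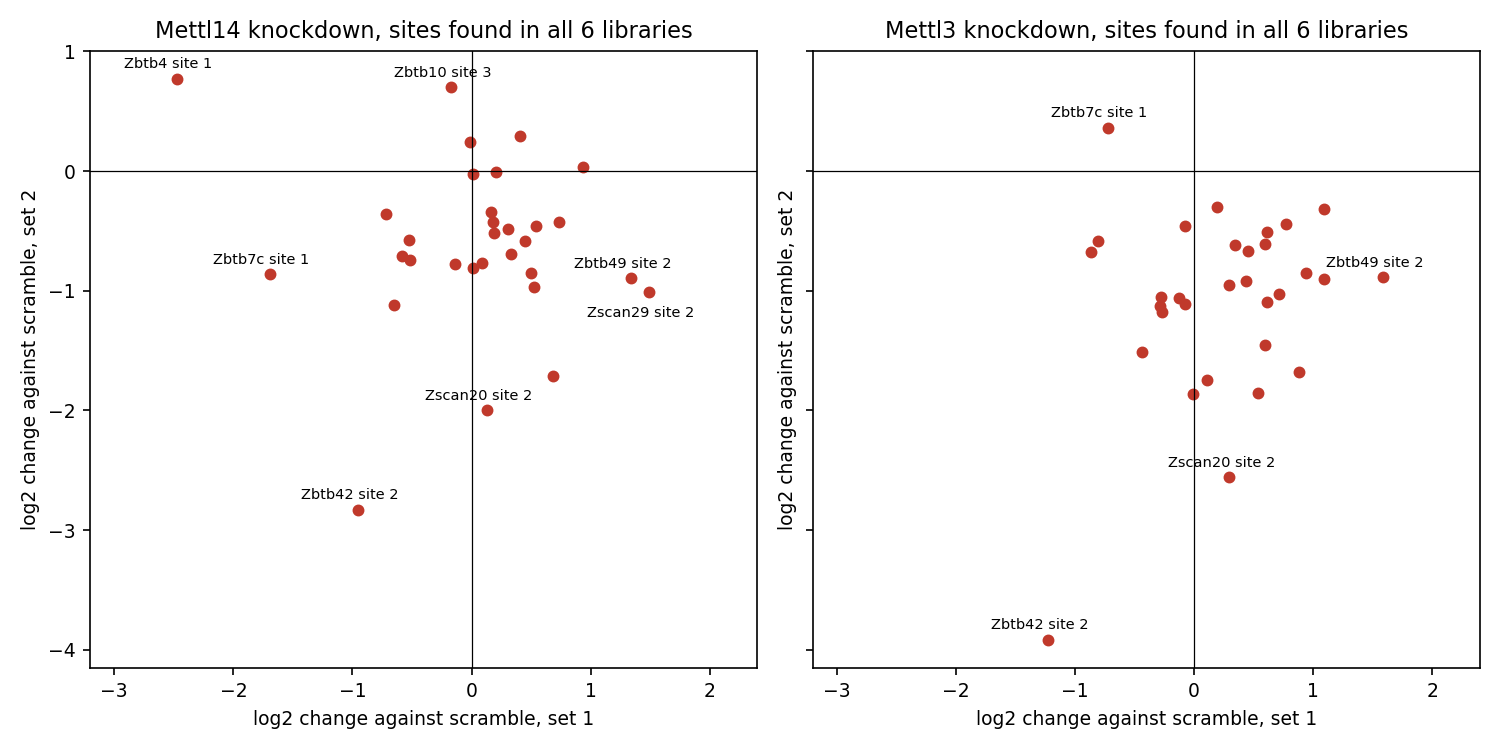
Log2 change of knockdown over scramble from the authors' deposited tables in set 1 (horizontal) and set 2 (vertical) at the 31 member sites found in all 6 libraries, for Mettl14 knockdown (left) and Mettl3 knockdown (right). Most points lie below 0 in set 2 (26 and 30 of 31), but on both sides of 0 in set 1 (11 and 12 below 0), and Zbtb42 site 2 is the lowest point in both panels.

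Several of these genes had further sites that fewer libraries shared. Zbtb10 had a 5' UTR site at 51.6 in the set 2 scramble library and a finger site at 25.7 with Mettl3 knockdown in set 2. Zbtb5 site 2, outside exons, read 79.1 with scramble shRNA and 80.8 with Mettl3 knockdown in set 1, over 23 and 12 tags. Zbtb7a had a 5' UTR site at 47.8 in the set 2 scramble library. These sites held 12 to 35 tags. Zbtb7b site 1, outside exons, was found in set 2 alone and read 21.4, 15.4 and 11.6. Zscan20 site 1, outside exons, read 46.5 in the set 2 scramble library. Its coding site 3 read 11.4 and 14.04 with scramble shRNA and Mettl3 knockdown in set 1, then 9.67, 6.74 and 7.14. The stop codon site of Zbtb8b and the 3' UTR site of Zbtb9 shared a pattern, present in all of set 1 and in the scramble library of set 2. Zbtb8b read 17.3, 16.7 and 16.1 there, then 26.1, and Zbtb9 read 17.7, 13.2 and 13.01, then 10.3. The stop codon site of Zscan29 read 255 and 303 with scramble shRNA and Mettl14 knockdown in set 1 and 90.9 with Mettl14 knockdown in set 2, over 12 to 18 tags. Single peaks were also listed in Zbtb3, Zbtb12, Zscan2, Zscan22 and Zscan29, of which those of Zbtb3, Zbtb12 and Zscan22 were in knockdown libraries.

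Zscan10 had 1 wide peak of low enrichment over its 14 fingers (chr17:23609204-23611000, exon 6 of 6), with no GGACT in the site. It read 4.42, 5.24 and 4.86 in set 1, over 359 and 370 tags in the knockdown libraries. In set 2 it was listed with Mettl3 knockdown alone, at 5.58 over 356 tags. The call of Zscan10 as higher with Mettl3 knockdown rests on 4.86 against 4.42 in set 1 and on the presence of a peak in set 2. Zscan4c had 1 peak, in the set 1 scramble library, at 14.6 over 31 tags (chr7:11009069-11009377). It belongs to a cluster of nearly identical copies, so the assignment of its reads is uncertain.

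Among Zkscan genes, Zkscan6 had a site in all 6 libraries, at its fingers in exon 8 of 8, which read 15.4, 28.3 and 23.2, then 19.5, 18.7 and 11.7. Zkscan17 read 6.56, 7.32 and 6.12, then 6.92 and 5.90 with no Mettl3 knockdown peak in set 2. Zkscan14 read 9.35 and 9.87 with scramble shRNA and Mettl3 knockdown in set 1 and 14.3, 10.9 and 11.1 in set 2. Unscaled, the Zkscan14 scramble values of the sets differed by more than scramble and knockdown did where both had a peak. With the constants this was not so in set 2. The authors' deposited tables give log2 changes of -0.75 for Mettl14 and -1.08 for Mettl3 there. Zkscan1 site 1 read 36.6, 68.2 and 25.9 in set 1 and had no peak in set 2. Zkscan5 read 12.5 with Mettl14 knockdown in set 1, then 11.9, 12.4 and 14.4. Zkscan2 and Zkscan3, the latter a repressor of autophagy genes, had 1 peak each, in the set 1 scramble library, at 116 over 14 tags and at 17.2 over 84 tags. Zkscan4 had 1, with Mettl3 knockdown in set 1, at 162 over 12 tags. Of the other members with a scramble peak in 1 set only, Zbtb8a read 5.58, 7.30 and 8.38 in set 1 and 6.41 with Mettl14 knockdown in set 2. Zbtb45 read 14.4, 14.4 and 12.2 in set 1 and 9.61 with Mettl3 knockdown in set 2 at the stop codon. Its coding site (site 1) had no scramble peak and was new with Mettl3 knockdown in both sets. It read 8.11 over 163 tags in set 1 and 7.93 over 151 tags in set 2, with a deposited FDR of 9.62% and 2.82%. Of 8 member sites with no scramble peak, it was the only 1 found in 2 knockdown libraries. Such sites were not counted over all named genes. Zbtb25, Zbtb40 and Zbtb41 had scramble peaks in set 1 alone.

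Relatives and partners of these genes were looked up from lists of symbols. Of 13 BTB or SCAN genes whose symbols do not follow the pattern, 12 had a peak, 8 of them in both scramble libraries. For this list and those below, the share of all protein-coding genes with a listed peak was 26.4%. With Mettl14 knockdown Gzf1, Zfp131 and Peg3 of 9 listed in both tables were lower in both sets (background 41.8%) and Zfp449 higher (background 7.55%). With Mettl3 knockdown Hic1, Peg3 and Zfp213 of 8 were lower (background 33.5%) and none higher (background 5.81%). Peg3, an imprinted SCAN gene, was thus the only one lower in all 4 tables. In a list of corepressors, cullin partners and other partners of BTB factors, the last including Ep300, Max and Myc, 10 of 17 genes had a peak. Of 7 listed in both Mettl14 tables and 6 in both Mettl3 tables, none was lower in both sets, against the same backgrounds of 41.8% and 33.5%. Myc, a partner of a BTB factor, was higher in both with Mettl14 knockdown (background 7.55%). With so few genes no difference from the background was tested. Ncor1, a corepressor bound by BTB domains, read 11.03, 13.6 and 12.3, then 7.25, 8.40 and 6.29. Of 12 genes listed for the KRAB corepressor and heterochromatin 4 had a peak. Trim28, the KRAB corepressor itself, had none. Zfp57, an imprinting factor with a KRAB domain, was higher in all 4 tables, 1 of 2 of these genes listed in both tables of each knockdown. Over all named genes 7.55% (Mettl14) and 5.81% (Mettl3) were higher in both sets. Zfp57 had no scramble peak in set 2, so its calls there rest on a peak being listed.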

How the data were processed

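m6A was mapped by IP in 6 libraries of J1 cells, 2 for each shRNA. The 6 libraries without antibody are not analysed here. The submitters' processing notes name, with no order or role, CASAVA 1.8.2 and cutadapt 1.1, then Bowtie 0.12.7 with TopHat2 2.0.6, further SAMtools 0.1.18, also Picard 1.74, and the build mm10. For the peak caller no version was given. Per the file headers, the 4 deposited tables list MACS peaks of 1 knockdown and 1 scramble library, each called against its own control.

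The deposited tag count is that of the listed peak in its own library. Member peaks held 6 to 479 tags, library totals are not known from the tables, and intervals cover counting error only. The deposited fold enrichment is a ratio of IP to control, and the deposited scaled ratio multiplies knockdown values by 1 constant per table, of unstated basis. The deposited FDR is in percent. The deposited peak score, a transform of the caller's p-value, was not used, and the deposited signed fold score gave the log2 change and, for shared peaks, the scramble enrichment. Scramble tags and FDR are listed for lost peaks alone.

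Peaks were taken as lost, new or shared from the authors' marks, which equalled an overlap of at least 1 nt on the same strand in all 4 tables (Python 3.11.15, pandas 2.3.3, numpy 2.4.6, scipy 1.17.1). Peak centres were placed on the GENCODE M21 transcript with the longest coding sequence. No model across peaks was fitted, since a value is listed only where a peak was called; counts of member peaks per library were compared by exact permutation. The code was tested on simulated data. Every member is named, with full values for those lost in all 4 tables, found in all 6 libraries, among the 3 largest mean changes in each direction per knockdown, or among the 5 with the most scramble peaks (ties kept), and for Zscan10, Zbtb7a and Zbtb7b. Zbtb16, Zbtb17 and Zbtb20 were to be described too but had no listed peak. The members, gene lists and alternatives were chosen with earlier results of these data known, and the CTGGACTT search after the sequences were seen.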

Additional observations from a re-analysis of the deposited data

How the results depend on the processing

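Of 77 values recomputed for 33 results, 61 stayed within the limits set. For shares the limit was the 95% Wilson interval of the main value, and for gene counts a set fold range. Several of the 61 could hardly move, so their number does not measure robustness. They include the same scramble library read from the other table and the authors' overlap of 1 nt recomputed. The permutations within sets are among them too, since their p-values cannot be small in this design. The share of new peaks with Mettl14 knockdown in set 2 was 5.13% among peaks with an FDR of at most 5%. The share of shared peaks that were lower in set 2 fell to 56.1% with Mettl14 knockdown when the median of the table was set to 0, and with Mettl3 knockdown to 65.0% without the scaling constant and 57.5% with the median at 0. Members higher in both sets with Mettl14 knockdown numbered 4 without the constant (Zbtb22 and Zkscan5 added) and 7 with the median at 0, and with Mettl3 knockdown 5 and 4. Read from 1 set in place of both, lower members ranged from 18 to 26 with Mettl14 knockdown and from 15 to 32 with Mettl3 knockdown, and higher members from 4 to 15 and from 4 to 16, because both sets were then no longer required. Lower members were 41.9% and 68.4% (Mettl14, set 1 and set 2) and 34.9% and 82.1% (Mettl3), where all named genes had 57.8%, 70.6%, 49.6% and 75.6%. When overlap had to cover 50% of the peak, lost shares were 32.8% and 36.2% for Mettl14 and 32.8% and 39.7% for Mettl3, and the background was not recomputed. Limits of 5% FDR or 20 tags on scramble peaks, and of 20 tags in both libraries, were not run because scramble tags and FDR are not listed for shared peaks. A limit of 20 tags in the knockdown library, chosen after seeing the data, left all 4 shares of lower peaks within the limits. The columns carry no replicate number, so the set was taken as a replicate block, also chosen after seeing the data. The difference in member peaks stayed 9.25 (exact permutation p = 0.111) and that per 100 peaks of named genes -0.084 (p = 0.556). No paired analysis was possible for the shares and gene calls because each table holds 1 library per group and gives no test.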
